A study of Mus musculus with 2 samples.

Results

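The transient receptor potential (TRP) channels described here are the products of 8 genes, Trpc1, Trpc4, Trpc5, Trpc6, Trpc7, Trpm2, Trpm3 and Trpm7, taken by their symbols from the 32285 genes of the count matrix. All 8 were listed and counted. TRP channels are cation channels built of 4 subunits that let sodium and calcium into the cell, so that their opening depolarizes a neuron. TRPC1, TRPC4 and TRPC5 form 1 subgroup and assemble with each other downstream of receptors that act through phospholipase C, and TRPC5 is known as a channel through which leptin excites POMC neurons. TRPC6 and TRPC7 belong to another subgroup, opened by diacylglycerol. TRPM2 responds to ADP-ribose and oxidative stress, TRPM3 to heat and the steroid pregnenolone sulfate, and TRPM7 joins a channel that passes magnesium to a kinase.

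The nuclei came from the arcuate nucleus of the hypothalamus (ARC) of male wild type C57BL/6J mice aged 10 to 12 weeks. Nuclei positive for the neuronal protein NeuN were sorted from the dissected tissue of several mice and made into 1 pooled droplet library of transcripts. A separate library from them reads the hashtags, barcoded antibodies put on a preparation before pooling. The files name 2 hashtags, ARC and PVH. The labels describe ARC tissue only, and neither what was dissected for the PVH hashtag nor the number of mice behind each hashtag was found there. No nucleus could be traced to a mouse. After filters, 3767 nuclei carried the ARC hashtag and 3074 the PVH hashtag, with medians of 4827 and 5039 unique molecular identifiers (UMIs, each 1 captured RNA molecule) per nucleus, and 0 barcodes were shared. Hashtag doublets (944 nuclei) and nuclei without a clear hashtag (2385) were left out. With 1 library there were no replicates and no tests. Levels are UMIs per 1000000 UMIs (CPM) of the summed nuclei with exact 95% Poisson intervals, which cover counting error only. A difference of at least 1.5-fold was used as the mark of a change in size.

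ARC nuclei formed 13 clusters and PVH nuclei 15, numbered by size within each hashtag. No TRP gene was used to draw them. ARC clusters were given a class name when markers of that class stood out. Cluster 1 was AGRP-like (690 nuclei; Agrp, Npy, Acvr1c, Corin and Otp), cluster 3 somatostatin-like (309; Sst, Otp and Unc13c), cluster 4 POMC-like (288; Pomc, Cartpt, Prdm12, Sntb1 and Tbx3), cluster 8 KNDy-like (212; Kiss1, Tac2, Pdyn, Esr1 and Tacr3), cluster 10 VMH-like (195; Nr5a1, Fezf1, Gpr149, Adcyap1 and Bdnf) and cluster 12 dopaminergic-like (182; Slc6a3, Th, Ddc, Slc18a2 and Lhx1). KNDy neurons make kisspeptin, neurokinin B and dynorphin, and VMH stands for the neighbouring ventromedial hypothalamus. Nr4a2, which is in another marker list, was also among the leading genes of cluster 8. The other 7 ARC clusters had no name. Among them, cluster 9 passed the marker list of growth hormone-releasing hormone neurons with Ghrh, Gal and Th. It was left unnamed because Chat, the first marker of another list, was among its leading genes. Agrp was at 288 CPM in cluster 1 but between 99.4 and 168 CPM in the 12 others, so that a UMI of Agrp alone did not mark a nucleus. Pomc was at 791 CPM in cluster 4 and between 71.8 and 176 CPM elsewhere.

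The genes lie on 7 chromosomes of the mouse build GRCm38, with positions from GENCODE M21. Trpc1 (ENSMUSG00000032839) spans chromosome 9 from 95705082 to 95750375 on the minus strand and Trpc6 (ENSMUSG00000031997) the same chromosome from 8544142 to 8680741 on the plus strand. Trpc4 (ENSMUSG00000027748) lies on chromosome 3 from 54156035 to 54318471 (plus), Trpc5 (ENSMUSG00000041710) on chromosome X from 144381671 to 144688180 (minus) and Trpc7 (ENSMUSG00000021541) on chromosome 13 from 56773113 to 56895993 (minus). Trpm2 (ENSMUSG00000009292) lies on chromosome 10 from 77907722 to 77970563 (minus), Trpm3 (ENSMUSG00000052387) on chromosome 19 from 22139046 to 22995410 (plus) and Trpm7 (ENSMUSG00000027365) on chromosome 2 from 126791565 to 126876230 (minus). Levels per length are given as a description, since whether the UMI counts of this library scale with gene length was not tested. Per kilobase of gene span, ARC levels ran from 0.22 CPM per kb for Trpm3, whose span is 856 kb, through 0.78 for Trpc5 to 2.19 for Trpm7. Per kilobase of joined exons the order differed, with Trpc5 highest at 47.5 CPM per kb and Trpm2 lowest at 1.78. The sources used here do not say whether intronic reads were counted, so neither order can be preferred.

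The sequences just upstream of 4 of the genes are shown because the members ranged from flat to strongly patterned and because 2 of the patterned genes have close partners at their starts. Each run is the 250 bases before the RefSeq gene start (GRCm38.p6, read along the gene's own strand), with every CG pair in capitals.
Trpm7, chr2:126876262-126876511, minus strand: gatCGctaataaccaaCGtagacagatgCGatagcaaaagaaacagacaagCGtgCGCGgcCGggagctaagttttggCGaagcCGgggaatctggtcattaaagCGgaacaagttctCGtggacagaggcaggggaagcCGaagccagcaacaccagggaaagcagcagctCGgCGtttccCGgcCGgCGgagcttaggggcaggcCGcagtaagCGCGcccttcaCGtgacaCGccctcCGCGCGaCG
Trpc7, chr13:56895790-56896039, minus strand: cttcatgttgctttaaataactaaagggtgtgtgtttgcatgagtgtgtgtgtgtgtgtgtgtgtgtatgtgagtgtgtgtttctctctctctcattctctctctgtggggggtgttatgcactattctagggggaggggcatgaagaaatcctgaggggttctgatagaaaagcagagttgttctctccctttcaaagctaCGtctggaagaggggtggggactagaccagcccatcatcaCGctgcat
Trpc5, chrX:144688181-144688430, minus strand: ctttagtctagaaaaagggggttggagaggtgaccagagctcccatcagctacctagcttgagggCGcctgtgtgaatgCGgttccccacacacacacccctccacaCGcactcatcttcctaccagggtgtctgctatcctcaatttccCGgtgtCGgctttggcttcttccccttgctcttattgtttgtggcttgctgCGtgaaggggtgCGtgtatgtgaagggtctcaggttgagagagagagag
Trpm3, first start, chr19:22138796-22139045, plus strand: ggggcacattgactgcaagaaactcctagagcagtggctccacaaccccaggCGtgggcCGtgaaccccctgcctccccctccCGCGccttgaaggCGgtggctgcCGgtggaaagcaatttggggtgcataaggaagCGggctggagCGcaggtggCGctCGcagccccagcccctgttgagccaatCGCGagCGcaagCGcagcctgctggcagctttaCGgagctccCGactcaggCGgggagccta
Trpm3, second start, chr19:22447958-22448207, plus strand: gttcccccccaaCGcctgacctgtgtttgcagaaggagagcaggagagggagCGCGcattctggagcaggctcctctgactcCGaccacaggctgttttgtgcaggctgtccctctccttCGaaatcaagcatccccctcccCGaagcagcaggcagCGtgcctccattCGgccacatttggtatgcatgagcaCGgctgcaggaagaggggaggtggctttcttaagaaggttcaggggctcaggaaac

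Trpm7, the flattest member by level, had 26 CG pairs in this window, more than 90.4% of 32851 upstream windows of the same length. Trpc7 had 2, and 18.8% of windows had fewer. Trpc5 had 7 and the Trpm3 starts 17 and 9, against a median of 6 over all windows. Trpc1 had 17, Trpc4 and Trpc6 had 12 each and Trpm2 had 10. The letters TATAAA, searched like the motifs that follow on both strands, were found once each upstream of Trpc4 and Trpm2 and not in the windows of the other members, and 12.4% of all windows held them. GGGCGG, a GC box, was found 3 times at Trpc1, 2 times at Trpc4 and once at Trpm2, against 32.7% of all windows with at least 1. TTCNNNGAA, the letters read by STAT factors, was in none of the members' windows and in 7.02% of all windows. These are matches of letters only.

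The plot of member levels by ARC cluster shows how unlike the 8 genes were. The fold between the highest and the lowest cluster was 19.9 for Trpm3, 17.6 for Trpc7, 13.9 for Trpc5, 10.8 for Trpc6, 8.71 for Trpc4 and 3.84 for Trpm2, but 1.72 for Trpc1 and 1.36 for Trpm7. Among 7578 genes with 400 to 5000 ARC UMIs the median was 1.83. Of those genes, 2.48% had a larger fold than Trpm3, 5.63% a larger one than Trpc4, 58.9% a larger one than Trpc1 and 93.4% a larger one than Trpm7. By this measure the members included some of the more unevenly and some of the more evenly spread transcripts of these neurons. Counting error widens the fold more for genes with fewer UMIs, and the genes compared were not matched for depth within that range.

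**Figure D1:**
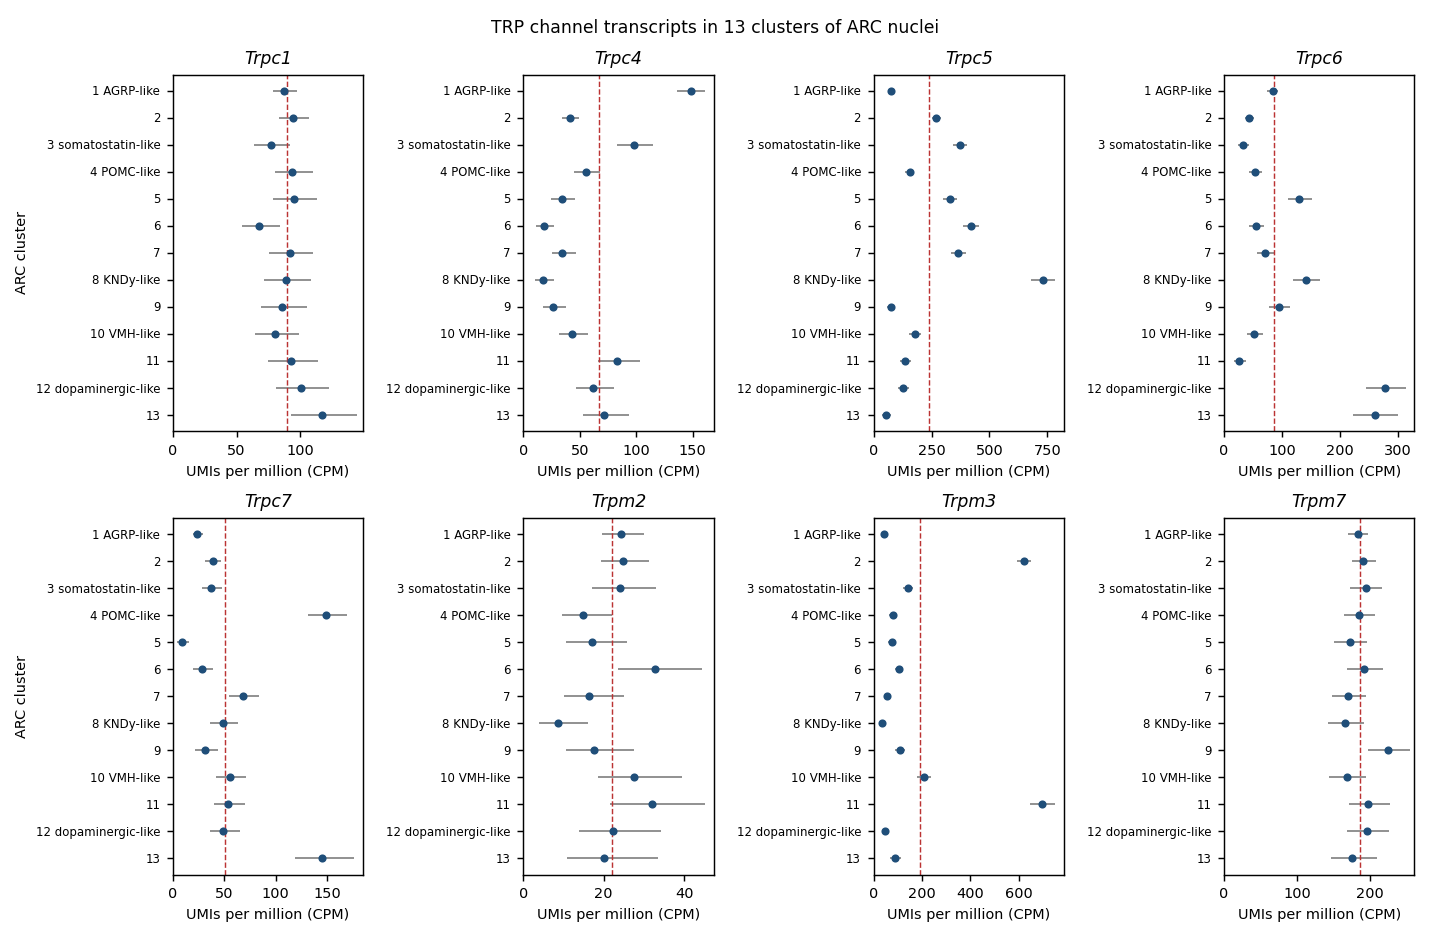
Level of each TRP gene (x axis, CPM) in the 13 ARC clusters (y axis, number and class name where given). Points are the summed level of a cluster, grey bars exact 95% Poisson intervals and the red dashed line the level over all ARC nuclei. Trpc5 stood highest in the KNDy-like cluster, Trpc4 in the AGRP-like cluster, Trpc6 in the dopaminergic-like cluster and cluster 13, Trpc7 in the POMC-like cluster and cluster 13, and Trpm3 in clusters 2 and 11.

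Trpc5 had the most UMIs of the members in ARC nuclei, 4646, at 238 CPM (interval 232 to 245). Across the 13 clusters its lowest level was 52.7 CPM, its median 179 CPM and its highest 731 CPM. The highest was in the KNDy-like cluster, where 89.6% of nuclei had a UMI, and its interval of 681 to 785 CPM lay above that of cluster 6, next in order at 419 CPM (384 to 457). The level in the KNDy-like cluster was 3.48-fold that of the other ARC neurons. When each nucleus was thinned to 1000 UMIs so that depth was equal, 50.5% of KNDy-like nuclei kept a Trpc5 UMI, against 29.1% in cluster 6 (leading genes Htr3b, C430014B12Rik and Col4a3) and 28.5% in the somatostatin-like cluster. At the other end, the AGRP-like cluster was at 73.9 CPM, cluster 9 (Chat, Moxd1 and Foxd2os) at 74.0 CPM and cluster 13 (leading genes Cgnl1 and Abca6) at 52.7 CPM. These 3 could not be ordered, since the interval of cluster 13 ran from 37.1 to 72.7 CPM, that of the AGRP-like cluster from 65.5 to 83.2 CPM and that of cluster 9 from 58.6 to 92.1 CPM. In 30 nuclei with glial markers Trpc5 gave 3 UMIs in 2 nuclei (6.67%, exact binomial interval 0.818 to 22.1) at a median of 2557 UMIs per nucleus, and 0% after thinning. Its level there, 34.2 CPM, had an interval of 7.04 to 99.8 CPM that overlapped those of the 3 low clusters. These nuclei also held Agrp at 273 CPM and Pomc at 216 CPM, so they were not free of neuronal transcripts.

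In the POMC-like cluster, the class for which the channel is best known, Trpc5 was at 155 CPM (137 to 175), or 0.63-fold the level of the other ARC neurons. A UMI was found in 44.4% of the 288 nuclei (38.6 to 50.4), and in 16% after thinning (11.9 to 20.7). The shares over all ARC nuclei, 46.9% and 18.3% after thinning, lay inside those intervals. When ARC nuclei were sorted instead by at least 2 Pomc UMIs and fewer than 2 Agrp UMIs, 460 nuclei had Trpc5 at 244 CPM, a log2 ratio of 0.04 over the other nuclei (-0.083 to 0.16), which gave no direction, against -0.67 for the cluster. Of these, 176 lay in the POMC-like cluster, at 136 CPM (115 to 161), and 284 outside it, with a median of 2 Pomc UMIs, at 320 CPM (292 to 350). The 19 nuclei with at least 10 Pomc UMIs were at 138 CPM (83.3 to 216).

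The leptin receptor gene Lepr was measured beside Trpc5. There were 3 ARC clusters that stood above the others for Lepr, the AGRP-like cluster at 114 CPM, the POMC-like cluster at 109 CPM and cluster 11 (Tbx19, Pirt and Slc15a5) at 92.6 CPM, and all others were at or below 27.2 CPM. In those clusters Trpc5 was at 73.9, 155 and 135 CPM, each below the median cluster. The KNDy-like cluster had Lepr at 14.2 CPM. Over the 13 clusters the correlation of log2(CPM + 1) was -0.25, a description over points of 1 library. Within the POMC-like cluster, 106 nuclei with a Lepr UMI had Trpc5 at 164 CPM (135 to 197) and 182 nuclei without at 149 CPM (126 to 175), so that the intervals overlapped. A Trpc5 UMI was found in 49.1% of the former and 41.8% of the latter, whose median depths were 6350 and 5068 UMIs. After thinning the shares were 21.7% (14.3 to 30.8) and 12.6% (8.18 to 18.4). In the AGRP-like cluster the levels with and without a Lepr UMI were 63.4 CPM (52.1 to 76.4) and 83.1 CPM (70.9 to 96.7). In cluster 11 they were 196 CPM (145 to 260) in 49 nuclei and 114 CPM (90.9 to 141) in 145 nuclei, which did not overlap. The shares of nuclei with a Trpc5 UMI did, at 40.8% (27.0 to 55.8) and 31.0% (23.6 to 39.2), or 14.3% (5.94 to 27.2) and 10.3% (5.91 to 16.5) after thinning.

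**Figure D2:**
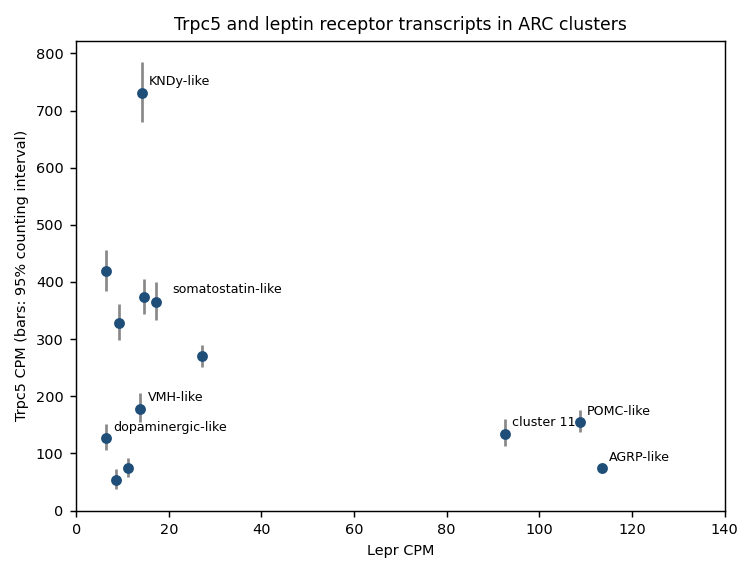
Trpc5 level (y axis, CPM, bars are exact 95% Poisson intervals) against Lepr level (x axis, CPM) in the 13 ARC clusters. The 3 clusters with Lepr above 90 CPM had Trpc5 between 73.9 and 155 CPM, and the KNDy-like cluster had 731 CPM of Trpc5 at 14.2 CPM of Lepr.

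Trpc4, the nearest relative of Trpc5, ran the other way at its ends. Its level was 67.3 CPM over all ARC nuclei, with a lowest cluster of 17.0, a median of 43.3 and a highest of 148 CPM. The AGRP-like cluster was highest (136 to 161), 3.08-fold the other ARC neurons, and above the somatostatin-like cluster at 98.0 CPM (83.2 to 115). A Trpc4 UMI was in 50.9% of AGRP-like nuclei. The lowest cluster was the KNDy-like one, at 17.0 CPM (10.1 to 26.9), where Trpc5 was highest, and cluster 6, next to the top for Trpc5, was next to the bottom for Trpc4 at 18.3 CPM (11.6 to 27.5). The somatostatin-like cluster was an exception, with Trpc4 at 1.52-fold and Trpc5 at 1.65-fold the other neurons. Cluster 9 was another, low for both, with Trpc4 at 0.37-fold and Trpc5 at 0.30-fold. Cluster 13, the lowest for Trpc5, had Trpc4 at 1.06-fold. The somatostatin-like cluster also had the largest share of nuclei with a UMI of both genes, 23.6%, or 73 of 309, against 6.13% of KNDy-like nuclei. After thinning, 5 nuclei at most in any cluster held both, too few to compare. Across clusters the correlation of Trpc4 with Trpc5 was -0.56 over 13 ARC clusters and -0.60 over 15 PVH clusters.

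Trpc1, which encodes a partner subunit of TRPC4 and TRPC5, showed none of this. It was at 89.3 CPM (85.1 to 93.6) in ARC nuclei and between 67.7 and 117 CPM across clusters, and no cluster was 1.5-fold from the others. The highest cluster was 13 (92.9 to 145) and the lowest cluster 6 (54.1 to 83.8).

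Trpc6 and Trpc7, of the diacylglycerol-gated subgroup, peaked in different named classes and shared a peak in cluster 13. Trpc6 was at 86.1 CPM in ARC nuclei, with a lowest cluster of 25.7, a median of 70.5 and a highest of 277 CPM. The highest were the dopaminergic-like cluster (245 to 313) and cluster 13 at 259 CPM (223 to 300), whose intervals overlapped. The KNDy-like cluster followed at 141 CPM and cluster 5 (Gm35041, Tmem215 and Dock5) at 130 CPM. A Trpc6 UMI was found in 63.2% of dopaminergic-like nuclei, and in 23.1% after thinning, against 10.3% and 3.61% in cluster 11. Cluster 11 was lowest by level and before thinning, and the somatostatin-like cluster was lowest after thinning, at 1.94%. Both top clusters carried Lhx1, a transcription factor gene, as a class marker or a leading gene.

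Trpc7 was at 50.5 CPM in ARC nuclei, with a lowest cluster of 8.49, a median of 48.2 and a highest of 149 CPM. It was the only one of the 8 members higher by 1.5-fold in the POMC-like cluster, at 3.62-fold the other ARC neurons (131 to 169 CPM), with a UMI in 52.8% of nuclei. Cluster 13 did not differ from it, at 145 CPM (119 to 176), and cluster 7 was next at 68.1 CPM (54.6 to 84.1). Cluster 5 gave 11 UMIs in 277 nuclei, at 8.49 CPM (4.24 to 15.2). Sorted by Pomc UMIs in place of clusters, the log2 ratio of Trpc7 was 0.98, against 1.86 for the POMC-like cluster. Nuclei of the POMC-like cluster with and without a Lepr UMI had Trpc7 at 136 CPM (110 to 167) and 158 CPM (135 to 185).

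Trpm3 had the widest range of all members, from 35.0 CPM in the KNDy-like cluster through a median of 86.9 to 696 CPM in cluster 11. Cluster 11 (645 to 751 CPM) and cluster 2 (593 to 651 CPM) overlapped and stood above the VMH-like cluster, next at 206 CPM (180 to 235). A Trpm3 UMI was in 73.7% of cluster 11 and 52.3% of cluster 2. Cluster 2, with 568 nuclei and C030005K06Rik, Sox10 and Cdh19 as leading genes, also had the highest summed level of astrocyte markers (108 CPM, against a median of 14.7 over clusters), of tanycyte markers (167 against 102) and of oligodendrocyte markers (281 against 67.7), and it passed the Sim1 marker list. At a finer clustering 30 of its nuclei were set apart, with the astrocyte gene Slc1a3 at 1036 CPM and Snap25, a synaptic gene, at 56.9 CPM. In these nuclei Trpm3 was at 2528 CPM (2206 to 2883), with a UMI in 76.7% of nuclei. Cluster 2 without them was at 560 CPM (533 to 589), and ARC nuclei as a whole went from 192 to 181 CPM. The largest count of Trpm3 in 1 nucleus was 82 UMIs, in cluster 2. For the other members these 30 nuclei held between 0 and 16 UMIs each.

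Trpm2 was the scarcest member, with 432 UMIs in ARC nuclei at 22.2 CPM (20.1 to 24.4). Its clusters ran from 8.51 CPM in the KNDy-like cluster (3.89 to 16.1) through a median of 22.4 to 32.7 CPM in cluster 6 (23.4 to 44.3), and most intervals overlapped. Trpm7 was at 186 CPM in ARC nuclei and between 165 and 225 CPM across clusters, with a UMI in 59.4% of nuclei. The interval of cluster 9, the highest (197 to 255), lay above those of the AGRP-like, VMH-like and KNDy-like clusters and of clusters 5 and 7, and the intervals of the 12 other clusters all overlapped each other.

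Read by class, the KNDy-like cluster had 2 of the 8 members at least 1.5-fold above the other ARC neurons, Trpc5 and Trpc6, where 10.9% of 16529 genes were higher, and 3 at least 1.5-fold below, Trpc4, Trpm2 and Trpm3, where 21.5% were lower. The AGRP-like cluster had 1 member higher, Trpc4 (7.77% of genes), and 3 lower, Trpc5, Trpc7 and Trpm3 (14.1% of genes). Among nuclei sorted by at least 2 Agrp UMIs and fewer than 2 Pomc UMIs those 3 were under 1.5-fold, at log2 ratios of -0.33, -0.29 and -0.48. The POMC-like cluster had 1 higher, Trpc7 (8.8%), and 4 lower, Trpc5, Trpc6, Trpm2 and Trpm3 (16.5%). In the sort by Pomc UMIs those 4 were also under 1.5-fold, at 0.04, 0.03, -0.46 and -0.31. The dopaminergic-like cluster had 1 higher, Trpc6 (9.87%), and 2 lower, Trpc5 and Trpm3 (22.7%). In the somatostatin-like cluster 2 were higher, Trpc4 and Trpc5 (8.9%), and 1 was lower, Trpc6 (14.7%). The VMH-like cluster had 0 higher (10.0%) and 2 lower, Trpc4 and Trpc6 (22.7%). The shares of genes, here and for the unnamed clusters, are over genes with at least 20 UMIs in ARC nuclei. They include genes with fewer UMIs than any member and were not matched for depth.

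Among the unnamed clusters, cluster 13 had 2 members higher, Trpc6 and Trpc7 (10.6% of genes), and 2 lower, Trpc5 and Trpm3 (21.7%). Trpm3 alone was higher in cluster 11 (8.91%), where Trpc5 and Trpc6 were lower (20.1%), and in cluster 2 (8.82%), where Trpc4 and Trpc6 were lower (9.46%). Trpc5 and Trpm2 were higher in cluster 6 (10.4%) and Trpc4, Trpc6, Trpc7 and Trpm3 lower (17.2%). Trpc5 was higher in cluster 7 (9.18%), with Trpc4 and Trpm3 lower (16.1%). Trpc6 was higher in cluster 5 (9.21%), with Trpc4, Trpc7 and Trpm3 lower (18.4%). Cluster 9 had 0 higher (9.71%) and 4 lower, Trpc4, Trpc5, Trpc7 and Trpm3 (21.2%).

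The members also differed between clusters with more of the GABA transporter gene Slc32a1 and those with more of the glutamate transporter gene Slc17a6. Over 8 GABA clusters of ARC nuclei Trpc4 was at 85.8 CPM, against 40.2 CPM over 5 glutamate clusters, a log2 difference of 1.09 (0.91 to 1.28). Trpc6 was also higher in GABA clusters (log2 difference 0.66, 0.51 to 0.81), while Trpc5 (-0.71) and Trpc7 (-0.93) were lower. Each of these could fall under 1.5-fold when 1 cluster was left out. Trpc4 was at 0.48 without the AGRP-like cluster and Trpc7 at -0.41 without the POMC-like cluster. Trpc5 was at -0.34 without the AGRP-like cluster and at -0.37 without the KNDy-like cluster. Trpc6 was at 0.42 without the dopaminergic-like cluster, at 0.42 without cluster 2 and at 0.50 without cluster 13. For Trpm3 the sides turned. It was at 131 CPM in GABA and 280 CPM in glutamate clusters (log2 difference -1.10), but the medians of single clusters were 95.3 and 77.9 CPM, and without cluster 2, which holds the glial nuclei and had Slc17a6 at 45.9 and Slc32a1 at 38.9 CPM, the difference was 0.53 (0.38 to 0.69). The ranges of single clusters overlapped for each gene. For Trpc5, GABA clusters ran from 52.7 to 419 CPM and glutamate clusters from 155 to 731 CPM. Among PVH nuclei, with 4 GABA and 11 glutamate clusters, the differences were 0.86 for Trpc4, -0.76 for Trpc5, 0.47 for Trpc6, 0.56 for Trpc7 and -0.44 for Trpm3. Leaving out 1 cluster took them as near to 0 as 0.59, -0.44, 0.15, 0.20 and -0.20.

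ARC and PVH nuclei were then compared over all nuclei of each hashtag. Trpm3 was at 192 CPM (185 to 198) in ARC nuclei and 478 CPM (468 to 489) in PVH nuclei, 2.50-fold higher in the latter. Trpc6 was at 86.1 CPM (82.0 to 90.3) in ARC and 46.9 CPM (43.6 to 50.3) in PVH nuclei, 1.84-fold higher in the former. The other 6 members were within 1.5-fold, with log2 ratios of ARC over PVH of -0.13 for Trpc1, 0.23 for Trpc4, -0.19 for Trpc5, -0.16 for Trpc7, -0.10 for Trpm2 and -0.01 for Trpm7. Thus 2 of 8 members were past 1.5-fold, where 14.7% of 18112 genes were (7.07% higher in ARC and 7.62% lower). Those genes had at least 20 UMIs over both hashtags, while the scarcest member, Trpm2, had 432 in ARC and 398 in PVH nuclei. The shares were thus not matched to the members for depth. The median log2 ratio was -0.12 over the members and 0.04 over all genes. In summed nuclei a difference in the mix of cell types and a difference in RNA per nucleus cannot be told apart.

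The Trpm3 difference did not hold within clusters that both hashtags shared. When nuclei of both hashtags were clustered together, 7 of 21 clusters had at least 30 nuclei of each hashtag, with 3054 nuclei in all. Within those the pooled log2 ratio of Trpm3 turned to 0.27, with ARC higher in 4 clusters and lower in 3. That of Trpc6 stayed at 0.78, with ARC higher in 5 of 7. Trpc7 went to -0.59, with ARC lower in 6 of 7, and Trpc4 changed side to -0.22, lower in 6 of 7. The remaining 14 clusters had fewer than 30 nuclei of a hashtag and gave no value. The pooled ratios have no interval. They were not recomputed without the nuclei with glial markers, where Trpm3 was at 2528 CPM.

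**Figure D3:**
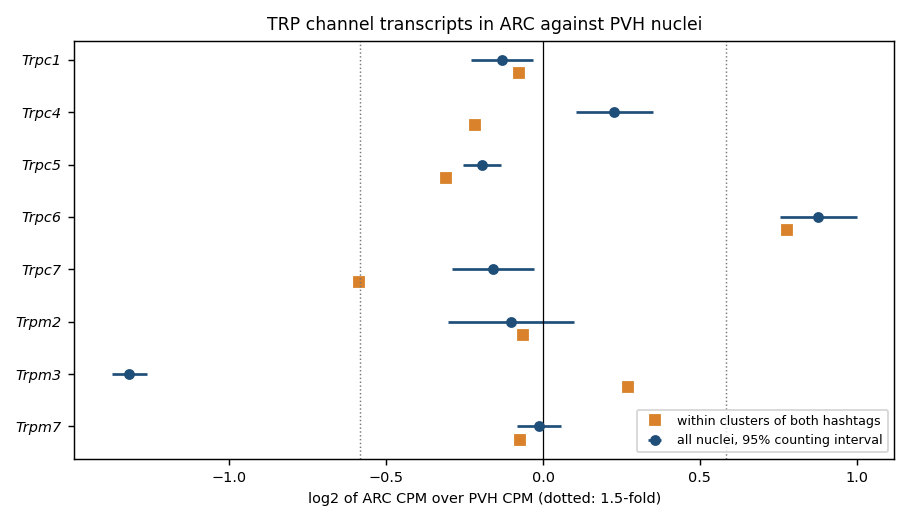
Log2 ratio of ARC over PVH level (x axis) for each TRP gene (y axis). Blue points are all nuclei of each hashtag with 95% counting intervals, orange squares the pooled ratio within the 7 joint clusters that held at least 30 nuclei of each hashtag, and dotted lines mark 1.5-fold. Trpm3 moved from -1.32 to 0.27, and Trpc6 stayed near 0.8.

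Across the PVH clusters, which are given by number and leading genes, Trpc1 and Trpm7 again had no cluster 1.5-fold from the others. Trpc5 ran from 127 through a median of 212 to 949 CPM. Cluster 14 (Pla2r1, Gm47710 and Gm10578) was highest (870 to 1034 CPM), cluster 4 (5330439M10Rik, Ahnak2 and Chil1) followed at 752 CPM (708 to 797), and all others were at or below 261 CPM. Both had Sim1, a transcription factor gene of the paraventricular hypothalamus, at 380 and 237 CPM. A Trpc5 UMI was in 97.8% of cluster 14 and 84.8% of cluster 4. The same 2 clusters were the lowest for Trpc4, at 9.06 CPM (2.94 to 21.1) and 19.9 CPM (13.3 to 28.5), as the KNDy-like cluster was in ARC nuclei. The other 6 clusters with Sim1 at 50 CPM or more had Trpc5 between 127 and 252 CPM.

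Trpm3 in PVH clusters ran from 109 through 365 to 1661 CPM. Cluster 12 (Rxfp2, Gm42557 and Eya4) was highest (1559 to 1769 CPM), followed by cluster 6 (Aox3, Npr3 and Esr2) at 1000 CPM (945 to 1057), cluster 10 (Arhgap28, Gm13849 and Hs3st3a1) at 846 CPM (781 to 915) and cluster 9 (Lhx8, Nostrin and Gm12128) at 748 CPM (693 to 807). The first 3 held Sim1 at 207 to 230 CPM and cluster 9 did not, at 2.21 CPM. Clusters 11 and 14, also rich in Sim1, were lowest for Trpm3, at 109 and 112 CPM. Trpc7 was highest in cluster 9 at 144 CPM (120 to 171), Trpc4 in cluster 5 (Fbxw13, Nr4a2 and Gm49906) at 125 CPM (107 to 146) and Trpc6 in cluster 7 (9130024F11Rik, Nr5a2 and Lhx1os) at 111 CPM (90.3 to 135). The last of these had Lhx1 and Lhx1os among its leading genes and passed the dopaminergic marker list with Slc6a3, Ddc, Slc18a2 and Lhx1. The ARC cluster with the most Trpc6 passed that list with the same genes and Th, which did not pass in the PVH cluster. PVH cluster 1, with Trpm3 at 541 CPM (514 to 569), held the highest summed level of oligodendrocyte markers of the PVH clusters, 262 CPM against a median of 63.0 CPM, and their part in its Trpm3 level was not tested. Trpc1 stayed between 79.7 and 130 CPM, Trpm7 between 141 and 243 CPM and Trpm2 between 11 and 40.5 CPM.

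**Figure D4:**
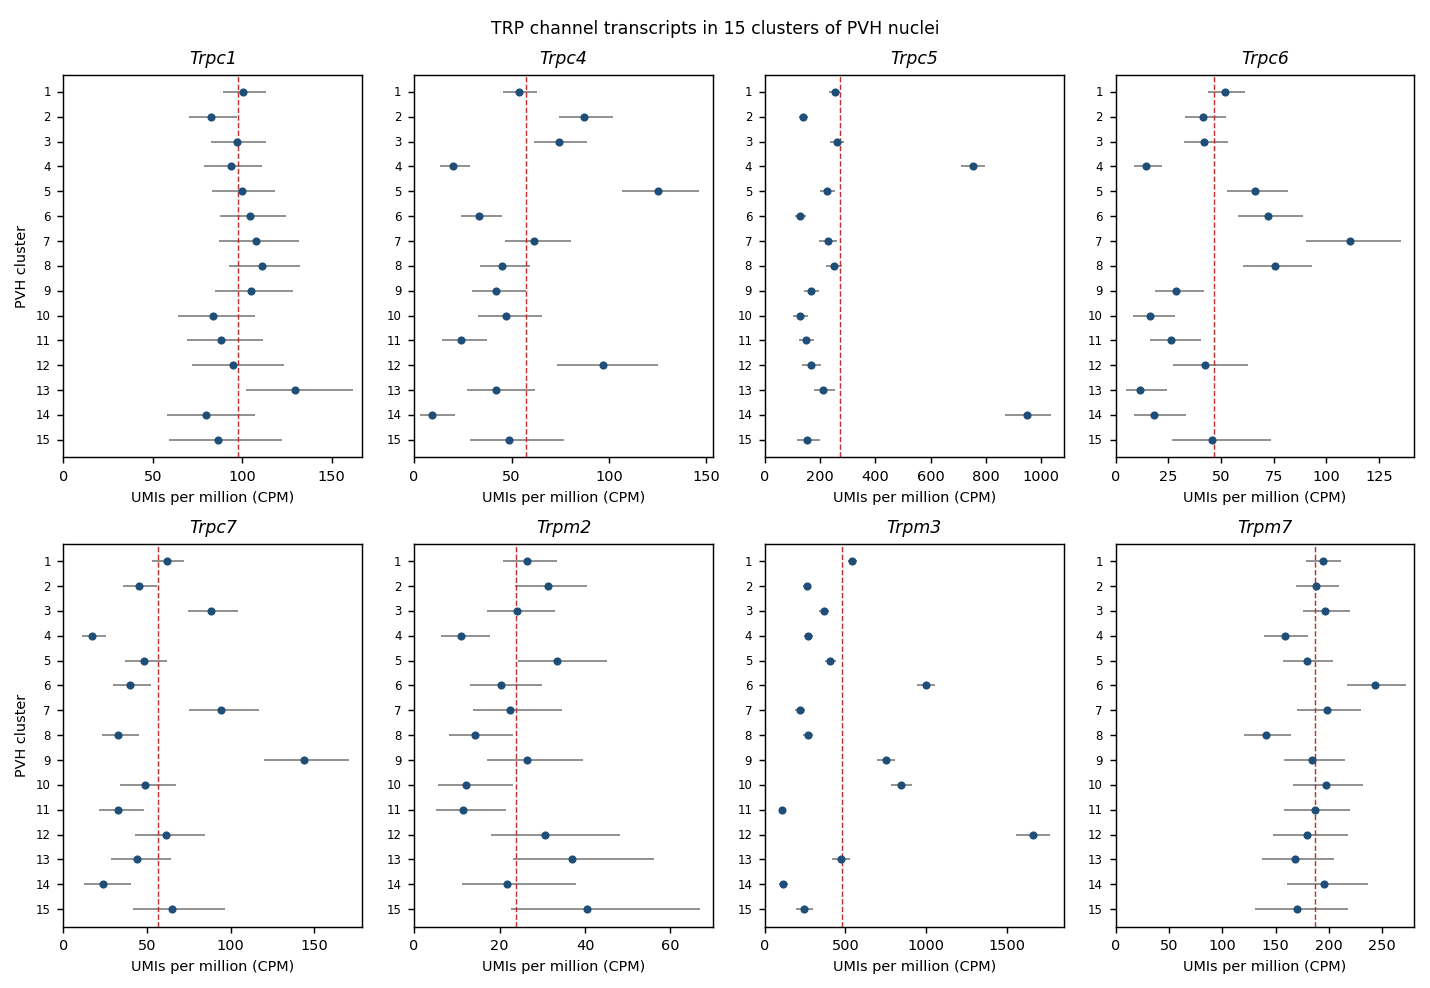
Level of each TRP gene (x axis, CPM) in the 15 PVH clusters (y axis). Points, bars and the dashed line are as for the ARC clusters, namely summed level, exact 95% Poisson interval and level over all PVH nuclei. Trpc5 was highest in clusters 14 and 4, where Trpc4 was lowest, and Trpm3 in clusters 12, 6, 10 and 9.

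The gene whose levels were most like those of Trpc5 across ARC clusters was Rtl4, by the correlation of log2(CPM + 1) among 12452 genes. It was 0.98 over 13 ARC clusters and 0.97 over 15 PVH clusters, which had no part in choosing it. Rtl4 starts at 144688907 on the plus strand of chromosome X, 727 bases from the start of Trpc5 on the minus strand, so that the genes point away from each other and the Trpc5 upstream sequence printed above lies between them. Rtl4 was at 366 CPM in ARC nuclei, with 98.3 CPM in cluster 13, 127 CPM in the AGRP-like cluster and 767 CPM in the KNDy-like cluster. In PVH nuclei it was highest in cluster 14, at 1212 CPM, and cluster 4, at 848 CPM. The genes did not keep a fixed ratio. Rtl4 had 2.23 UMIs for each Trpc5 UMI in the POMC-like cluster and 1.05 in the KNDy-like cluster. Trpc5os, a gene on the opposite strand inside Trpc5, gave 142 ARC UMIs and correlated with Trpc5 at 0.89 in ARC and 0.90 in PVH clusters. Fam192a, also among the genes most like Trpc5 over ARC clusters (0.90), had a correlation of -0.38 over PVH clusters.

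**Figure D5:**
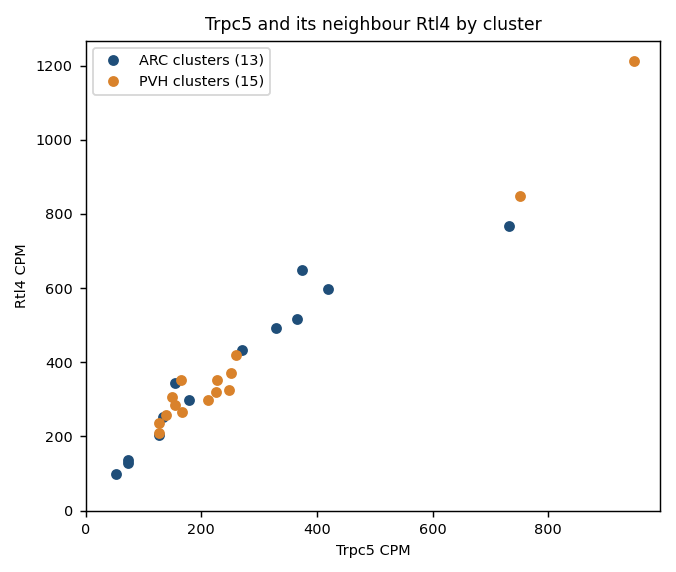
Rtl4 level (y axis, CPM) against Trpc5 level (x axis, CPM), with 1 point for each of 13 ARC clusters (blue) and 15 PVH clusters (orange). The highest ARC point is the KNDy-like cluster (731 and 767 CPM) and the highest PVH points are clusters 14 and 4.

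Trpm3 was likewise most like a gene at its own locus. Gm27151, annotated as antisense, runs along chromosome 19 on the minus strand, from 22438520 to 22448865, and covers the window upstream of the second Trpm3 start. Its levels had a correlation with Trpm3 of 0.90 over ARC and 0.95 over PVH clusters, from 182 UMIs in ARC nuclei. C330002G04Rik, on the minus strand across the end of Trpm3, had correlations of 0.79 and 0.72. Gm32014, a minus strand RNA gene that overlaps the end of Trpc6, had 950 ARC UMIs and correlations with Trpc6 of 0.66 and 0.84. The sources used here do not say whether the counting used strand, and without strand the reads of such overlapping pairs cannot be told apart. For the other members, Trpc6 included, the most alike genes were Tmem165 for Trpc1 (0.83), Med12 for Trpc4 (0.91), Copg1 for Trpc6 (0.87), Dnal4 for Trpc7 (0.83), Abcg1 for Trpm2 (0.91) and Rogdi for Trpm7 (0.88). Over PVH clusters these correlations lay between -0.44 for Med12 and 0.39 for Abcg1.

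Other genes of the family and its inputs were read from lists. Of 20 other TRP genes, 19 were listed in the matrix and 10 had at least 20 UMIs in ARC nuclei. Trpv2 was at 39.0 CPM and Pkd2 at 69.7 CPM in ARC nuclei. Of the 13 with at least 20 UMIs in both hashtags together, Trpv3 and Trpv6 were past 1.5-fold on the ARC side, on 22 and 61 ARC UMIs. The interval of the log2 ratio of Trpv3 ran from -0.22 to 2.16 and so held no direction.

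A list of 25 genes that act upstream of TRPC channels or in store-operated calcium entry was fully counted. In ARC over PVH nuclei, where 7.07% of all genes were higher and 7.62% lower, 3 were higher, Lepr (45.8 against 10.0 CPM), the inositol trisphosphate receptor gene Itpr1 (113 against 63.2 CPM) and Itpr2 (19.4 against 10.8 CPM). Lower were 2, the serotonin receptor gene Htr2c (122 against 324 CPM) and the phospholipase C gene Plcb1 (254 against 418 CPM). In the KNDy-like cluster, where Trpc5 was highest, 2 of 25 were higher, the neurokinin B receptor gene Tacr3, itself a marker of that class, at 47.3 CPM and Orai3 on 5 UMIs, and 7 were lower, where 10.9% and 21.5% of all genes were. Among the latter was Plcb1, at 79.4 CPM against 264 CPM in the other neurons. In the POMC-like cluster 5 were higher and 5 lower (8.8% and 16.5% of all genes), with Itpr2, among the lower, at 6.54 CPM against 20.6 CPM. In the AGRP-like cluster 2 were higher, Lepr and Itpr2, and 8 lower (7.77% and 14.1% of all genes), with Htr2c at 32.1 CPM against 144 CPM.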

How the data were processed

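The authors deposited counts of UMIs per gene and barcode (11409 barcodes) from 1 pooled library, without normalization. The submitters' processing notes name Cell Ranger 5.0, Seurat 4 and the build mm10, and the header of the matrix Cell Ranger 4.0.0. Nuclei were kept with over 800 but under 5000 genes detected, at most 12000 counts and at most 1% mitochondrial counts (10170 barcodes), with genes found in at least 3 nuclei. HTODemux (positive quantile 0.8) assigned hashtags and left out cross-hashtag doublets; doublets within a hashtag were not removed. Counts were log-normalized (scale factor 10000) and clustered by the Leiden method at a resolution of 0.55 on 2000 variable genes without TRP genes, 30 components and 20 neighbours, with Seurat 5.3.0 and leidenbase 0.1.32 under R 4.3.3. ARC and PVH nuclei were clustered apart.

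To be named for a class, a cluster had to pass the leading marker of the class and 3 markers or more in all, each with at least 3 UMIs and 1.5-fold or more over the other neurons. No other class could pass, the first markers of other classes among the 10 leading genes could not outnumber its own markers there, and no non-neuronal list could pass. Counts were summed by cluster in Python 3.11.15 with numpy 2.4.6 and scipy 1.17.1. Levels have exact Poisson, shares exact binomial and ratios exact conditional binomial intervals of 95%. Genes counted past 1.5-fold had at least 20 UMIs, and the genes ranked by likeness at least 100. The ratio step was tested on simulated data, and thinning was checked against the unthinned levels. Both lists of related genes and the members were chosen with earlier results of these data known. The genes named in the text are the members, up to 3 genes each way of a list past 1.5-fold, the 3 most alike genes of a member, the 3 leading genes of an unnamed cluster and class markers. Some genes that this rule names are not reported here. Trpv2, Pkd2 and the genes at the members' loci were added after their values were seen. Upstream sequences are from RefSeq (GRCm38.p6), in which all 8 members matched. Other settings of filters, demultiplexing, clustering, scaling and thinning were tried.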

Additional observations from a re-analysis of the deposited data

How the results depend on the processing

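Over 74 results, 856 alternative values were computed, of which 739 stayed within the counting error and 113 moved further. The other 4 changed sign, which was counted only for results past 1.5-fold. Smaller results that changed sign, such as that of Trpc4 within joint clusters, are among those that stayed or moved. Of 366 alternatives for the 31 results past 1.5-fold, 333 stayed past it. Log2 ratios of ARC over PVH that turned or moved within joint clusters were 0.27 for Trpm3, -0.22 for Trpc4, -0.31 for Trpc5 and -0.59 for Trpc7. With a stricter hashtag quantile of 0.99 they were 0.067 for Trpc1, 0.10 for Trpc4, -0.086 for Trpc5, 1.05 for Trpc6, -0.34 for Trpc7 and 0.23 for Trpm2. Trpm3 was at -1.26 as a mean of CPM per nucleus and at -1.40 without the 30 non-neuronal nuclei, an alternative chosen after seeing the data. Genes past 1.5-fold numbered 2662, or 1216 with a minimum of 100 UMIs, 7497 with a minimum of 1 UMI and 1094 at 2-fold. By thinning, the log2 ratios were 1.40 for Trpc4 in the AGRP-like class, and -0.35 for Trpc5 and 1.60 for Trpc7 in the POMC-like class, where 16% of nuclei kept a Trpc5 UMI. Sorting nuclei by 2 UMIs of Agrp or Pomc gave 0.71 for Trpc4 in AGRP nuclei and, in POMC nuclei, 0.042 for Trpc5, 0.031 for Trpc6 and 0.98 for Trpc7 (the first 2 with intervals that span 0), with a Trpc5 UMI in 50.9% of nuclei. Trpc6 in the dopaminergic-like class was at 2.28 with a resolution of 0.8 or 1.2 and at 2.08 with the stricter quantile, which also gave -0.95 for Trpc5 in the POMC-like class. Trpc5 in the KNDy-like class kept to 1.75 to 1.82. Leaving out each cluster in turn, also chosen after seeing the data, took the log2 ratio of Trpm3 in GABA over glutamate ARC clusters from -1.10 to 0.53 without cluster 2. The cause of these shifts was not tested. The AGRP, KNDy and somatostatin names were not reached with the stricter quantile, AGRP not with markers at 2-fold and VMH not with a resolution of 0.3, so those values could not be had. Leaving out clusters that were not neuronal gave no separate value, since no cluster was of that kind. No paired analysis was possible because the nuclei came from 1 pooled library without replicate numbers. Leaving out a replicate was likewise not possible. The depth limits Trpm2 most, as the member with the fewest UMIs. Hashtag, mice and dissection cannot be told apart in any difference between ARC and PVH nuclei.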

Other observations

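Nuclei that the hashtags did not assign were in no comparison. In the 2385 nuclei without a clear hashtag Trpm3 was at 464 CPM (450 to 478) and Trpc5 at 295 CPM (284 to 306). Trpc6 was at 61.7 CPM, Trpc4 at 59.6 CPM, Trpc7 at 54.1 CPM, Trpm7 at 202 CPM, Trpc1 at 88.9 CPM and Trpm2 at 22.9 CPM, with a median depth of 3926 UMIs. In the 944 hashtag doublets, with a median of 5216 UMIs, Trpm3 was at 374 CPM (357 to 391) and Trpc5 at 263 CPM. The other 6 genes ran from 19.3 CPM for Trpm2 to 180 CPM for Trpm7 there, with Trpc6 at 65.0 CPM.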
